A study of Homo sapiens with 21 samples.

Results

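Fatty acid oxidation was followed through 9 genes: CPT1A, CPT2, ACADVL, ACADM, HADHA, HADHB, ETFA, ETFB and PLIN2. They were found as the rows of the deposited count table whose Ensembl identifier maps to these symbols, and all 9 were present among 42339 listed genes and passed the filter on low counts in every comparison. BT-549 is an established triple-negative breast cancer (TNBC) cell line, and its poly(A) RNA was sequenced in 21 libraries, 3 in each of 7 groups. The 2D group was grown attached in medium with serum and insulin. The 3D group was grown as mammospheres, free-floating spheres kept in MammoCult medium and studied here at serial passage 6, and a further group of such spheres received 0.75 μM GO-203, an inhibitor directed at the MUC1-C subunit. The tet-MUC1shRNA mammospheres (passage 6) and tet-MYCshRNA mammospheres (passage 8) carried a doxycycline-inducible shRNA and were given 0.1% DMSO as vehicle or 500 ng/ml doxycycline (DOX). Each target was silenced by 1 shRNA, no control shRNA with DOX was among the 21 libraries, and effects of DOX itself cannot be told apart from those of the shRNA. Culture format, medium and passage changed together between 2D and 3D cells and cannot be told apart either.

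Mitochondrial β-oxidation breaks fatty acids down to acetyl-CoA. CPT1A, on the outer mitochondrial membrane, joins long-chain acyl groups to carnitine and is the rate-controlling entry step, and CPT2 on the inner membrane returns them to CoA. The acyl-CoA dehydrogenases ACADVL (very long chains) and ACADM (medium chains) take the electrons of the opening step, HADHA and HADHB are the α and β subunits of the trifunctional protein that completes the cycle for long chains, and ETFA and ETFB form the electron transfer flavoprotein that carries the electrons towards the respiratory chain. PLIN2 is not an oxidation enzyme: it coats cytosolic lipid droplets, where the same fatty acids are stored as triglyceride. BT-549 cells have mesenchymal features, and oxidation and storage of fatty acids are commonly studied in TNBC because both draw on the same acyl-CoA pool.

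The genes lie on 7 chromosomes of GRCh38, with positions from GENCODE release 44: CPT1A on chromosome 11 (68754620 to 68844410), CPT2 (53196792 to 53214197) and ACADM (75724431 to 75787575) on chromosome 1, ACADVL on 17 (7217125 to 7225266), ETFA on 15 (76188555 to 76311730), ETFB on 19 (51345169 to 51366388) and PLIN2 on 9 (19108375 to 19149290). HADHA (26190635 to 26244672) and HADHB (26243170 to 26290465) sit head to head on chromosome 2. Their RefSeq start sites lie 306 bases apart on opposite strands, and 194 bases are upstream of both within 250-base windows. This shared stretch and the 250 bases upstream of PLIN2, the gene that changed most, are shown from RefSeq (GRCh38.p14). Capitals mark GGGCGG or CCAAT on either strand in the HADHA and HADHB stretch (chr2:26244689-26244882, written on the HADHB strand), and ACGTG on either strand in that of PLIN2 (chr9:19127493-19127742, minus strand).
HADHA and HADHB, shared: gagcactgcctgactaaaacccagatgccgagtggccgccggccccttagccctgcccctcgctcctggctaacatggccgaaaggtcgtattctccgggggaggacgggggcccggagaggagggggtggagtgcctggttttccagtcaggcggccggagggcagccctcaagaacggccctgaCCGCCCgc
PLIN2, upstream: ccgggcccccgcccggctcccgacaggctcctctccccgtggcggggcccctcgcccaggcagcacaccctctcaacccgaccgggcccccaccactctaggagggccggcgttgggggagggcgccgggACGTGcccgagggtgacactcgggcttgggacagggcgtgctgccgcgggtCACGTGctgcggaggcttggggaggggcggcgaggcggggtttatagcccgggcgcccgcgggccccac
The PLIN2 stretch holds CACGTG, the palindrome known as the canonical E-box of MYC and MAX, 69 bases before the start site, and a further ACGTG 120 bases before it. CACGTG contains ACGTG on each strand. Among all 9 genes, CACGTG was found upstream of PLIN2 only, while 6.34% of 35116 RefSeq promoter windows hold it in the same 250 bases. ACGTG was found for PLIN2, ACADVL and ETFB, against 18.5% of all windows, and GGGCGG for 8 of the 9 genes, against 42.6%. AGGTCA, the half-site of many nuclear receptors, was found upstream of none of the 9 and in 12.1% of all windows. These matches describe letters in the window and not binding.

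Library totals ran from 38026597 to 99751717 counts. Between replicate libraries the counts varied beyond sampling error (chi-square per degree of freedom 4.13 to 45.6, highest within the DOX-treated tet-MYCshRNA group), and mtDNA-encoded genes took 2.31% to 6.72% of a library. MUC1 fell in the tet-MUC1shRNA line from 101, 83.2 and 86.6 CPM (the gene's share of its library, with TMM factors set over all 21 libraries) with vehicle to 19.7, 21.2 and 23.3 with DOX, a log2 fold change of -2.06 (standard error 0.07, edgeR adjusted p = 3e-15). MYC fell in the tet-MYCshRNA line from 439, 418 and 386 CPM to 244, 279 and 297, a log2 fold change of -0.62 (standard error 0.08, edgeR adjusted p = 9.1e-05). MUC1 itself rose on MYC silencing (log2 fold change 1.25) and MYC rose slightly on MUC1 silencing (0.25). Of the 7 breast epithelial markers, EPCAM reached at most 0.125 CPM, KRT19 0.103 CPM and KRT14 0.307 CPM in any library, and CDH1, KRT8 and KRT18 at most 1.51 CPM. The basal keratin KRT5 was the exception, with means of 0.0228 CPM in 2D cells and 1.21 to 95.2 CPM in the mammosphere groups, highest with GO-203. The other epithelial markers were thus at low levels in every library, and KRT5 was too in 2D cells. Of the 3 mesenchymal markers, VIM was at 1076 CPM or more and FN1 at 441 CPM or more in every library, while CDH2 had a mean of 442 CPM in 2D cells and of 11.9 to 74.1 CPM in the mammosphere groups.

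All 9 genes were transcribed in every group, but at very different levels. Per kilobase of the canonical transcript, the 3D means were 766 CPM for PLIN2, 138 for ACADVL, 102 for HADHA, 60.9 for HADHB, 47.3 for ETFA, 43.4 for ACADM, 32.5 for CPT1A, 13.8 for ETFB and 6.36 for CPT2. Over merged exons instead, HADHA (69.2) came ahead of ACADVL (62.3), and CPT1A (25.9) ahead of ETFA (11.3) and ACADM (7.12). In 2D cells the order, per canonical transcript, was led by HADHA at 63.6 and ACADVL at 62.9 CPM per kilobase, with PLIN2 at 36.2. On the same per-kilobase scale, ETFB stood well under its partner subunit ETFA, and CPT2 stood under CPT1A, which acts at the preceding step. On CPM, the highest of the 7 group means exceeded the lowest by 28.9 times for PLIN2, by 2.56 times for ETFB, and by 1.46 to 2.19 times for the other 7 genes.

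**Figure D1:**
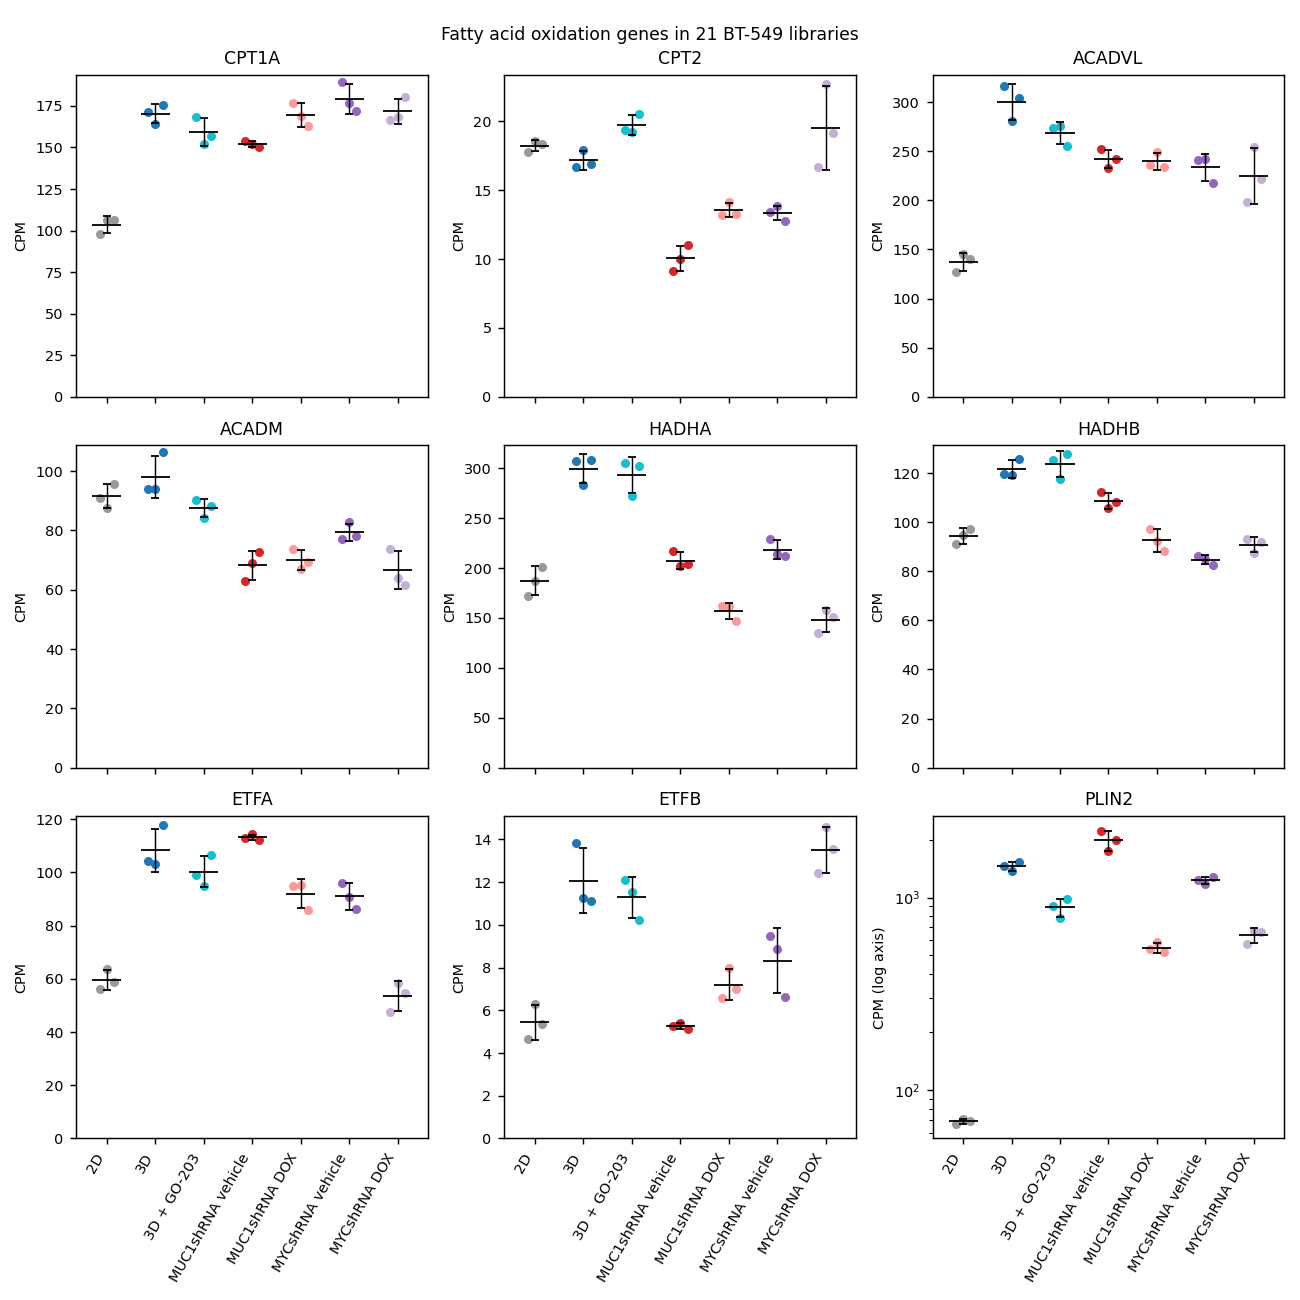
CPM of the 9 genes in each of the 21 libraries (points, by group on the horizontal axis), with the group mean (line) and SD (bars), n = 3 per group. PLIN2 is drawn on a log axis, where 2D cells lie at 66.6 to 70.6 CPM and every 3D group lies above 500.

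Mammospheres carried more RNA of most of the oxidation genes than 2D cells. Of the 9 genes, 7 rose in 3D cells, 0 fell, and CPT2 and ACADM did not pass the test. Over all 19190 genes tested, 32.0% rose and 31.7% fell at the same threshold (edgeR adjusted p below 0.1). With a change of more than 1.5-fold also required, 6 of the 9 rose, against 17.9% of all genes. The median log2 fold change was 0.71 over the 9 genes and -0.01 over all genes.

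PLIN2 was at 66.6, 70.6 and 68.6 CPM in the 2D libraries and at 1455, 1379.6 and 1525 CPM in the 3D libraries. The groups were far apart, and the log2 fold change was 4.40 (standard error 0.06, edgeR adjusted p = 7.9e-18), a 21.1-fold rise. The next largest rise among the 9 was that of ETFB, at 2.20-fold.

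At the entry step, CPT1A was at 97.7, 106 and 107 CPM in 2D cells and 171, 164 and 175 CPM in 3D cells. Its log2 fold change was 0.71 (standard error 0.06, edgeR adjusted p = 1.9e-08), with no overlap between the groups. CPT2 had 17.8, 18.6 and 18.4 CPM in 2D and 16.7, 18.0 and 16.9 CPM in 3D cells, so the groups overlapped, and its log2 difference was -0.09 (95% interval -0.26 to 0.08, edgeR adjusted p = 0.346). Between the dehydrogenases the same contrast was seen. ACADVL rose from 127, 145 and 140.1 CPM to 316, 280.5 and 304 CPM (log2 fold change 1.12, standard error 0.06, edgeR adjusted p = 2.2e-10). ACADM, which acts on shorter chains, was at 91.0, 87.7 and 95.8 CPM in 2D and 93.9, 93.9 and 106 CPM in 3D cells, with a log2 difference of 0.10 (95% interval -0.04 to 0.23, edgeR adjusted p = 0.223). Without 3D replicate 1, ACADM passed the test (0.15, adjusted p = 0.0884).

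Both trifunctional protein subunits rose, the α subunit by more. HADHA went from 172, 187 and 201 CPM to 308, 283 and 308 CPM (log2 fold change 0.67, standard error 0.06, edgeR adjusted p = 1.2e-07), and HADHB from 91.1, 94.8 and 97.2 CPM to 119.6, 119 and 126 CPM (0.36, standard error 0.06, edgeR adjusted p = 3.8e-05). Neither gene's groups overlapped. The electron transfer flavoprotein subunits rose too. ETFA was at 56.2, 63.8 and 58.8 CPM in 2D and 104, 103 and 118 CPM in 3D cells (log2 fold change 0.86, standard error 0.07, edgeR adjusted p = 1.4e-08). ETFB, the least counted of the 9, went from 4.66, 6.29 and 5.37 CPM to 13.8, 11.2 and 11.1 CPM (1.14, standard error 0.13, edgeR adjusted p = 1.5e-06).

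The rest of the fatty acid pathway was grouped into 6 lists of 89 genes that hold none of the 9. In the lipid droplet and lipolysis list, 9 of 13 tested genes rose and 3 fell (median log2 fold change 0.88). The monoglyceride lipase MGLL had 14 counts over the 3 2D libraries and 69.6 ± 5.47 CPM (SD, n = 3) in 3D cells, and the droplet coat gene PLIN4 rose from 0.406 ± 0.0326 to 50.04 ± 4.62 CPM (SD, n = 3 each). DGAT2, which makes triglyceride, fell from 12.2 to 0.694 CPM (log2 fold change -4.16), and the droplet assembly gene BSCL2 fell too (-0.69). In the list of uptake and activation genes, 8 of 12 rose and 1 fell (median 1.23), among them FABP4, a cytosolic fatty acid carrier, with 2 counts over the 2D libraries and 57.4 CPM in 3D cells, and the acyl-CoA synthetase ACSL1 (2.13). The related synthetase ACSL3 was the gene that fell (-0.36).

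Among genes that control oxidation, 8 of 15 rose and 2 fell (median 0.37). PDK4, the kinase that restrains pyruvate dehydrogenase, had 12 counts in all over the 2D libraries and 630.2 ± 23.0 CPM (SD, n = 3) in 3D cells, the lipase inhibitor ANGPTL4 rose from 5.23 to 199.6 CPM, and the lipid-sensing receptor PPARG from 12.6 to 407 CPM (chosen after its values were seen). The 2 that fell both set malonyl-CoA, the inhibitor of CPT1: ACACB, which makes it, fell from 1.74 to 0.867 CPM (log2 fold change -1.01), and MLYCD, which breaks it down, from 2.96 to 1.79 CPM (-0.73). Both were at low levels. ACACA, which also makes malonyl-CoA (chosen after its values were seen), was at 223 CPM in 2D and 237 CPM in 3D cells. It did not pass the test (0.08, edgeR adjusted p = 0.3). The other mitochondrial enzymes moved less: 10 of 17 rose and 1 fell, with a median of 0.27, led by ACADS (1.95) and ECI1 (1.02), and DECR1, which handles unsaturated chains, fell (-0.82). The other carnitine shuttle genes were split, with 2 higher (CRAT 0.87 and CROT 1.15) and 3 lower of 5, including the carnitine importer SLC22A5 (-1.03) and the brain-type CPT1C (-0.57). Of 14 peroxisomal genes 4 rose and 5 fell (median -0.11). ECH1 rose (1.48) and the sterol carrier gene SCP2 fell (-0.39), while the transporter gene ABCD2 had 0 counts in the 2D libraries and was at least 32.8-fold higher in 3D cells, taking 3 counts per library as the floor.

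FABP4 and CIDEC are also adipocyte markers. The summed level of the 4 adipocyte markers in the table was 0.155 to 0.222 CPM in 2D and 66.7 to 69.7 CPM in 3D libraries, nearly all of it FABP4 and CIDEC. The adipocyte hormone LEP did not exceed 0.183 CPM, nor the adipocyte droplet coat gene PLIN1 0.424 CPM, in any library. In bulk RNA, a change in the number of cells that express a gene and in its RNA per cell cannot be told apart.

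Silencing MUC1 split the 9 genes. CPT1A, CPT2 and ETFB rose, HADHA, HADHB, ETFA and PLIN2 fell, and ACADVL and ACADM did not pass the test. The count of 3 higher and 4 lower among 9 stands beside 30.7% higher and 31.6% lower of 19220 genes tested. Only PLIN2 changed by more than 1.5-fold, where 14.6% of all genes fell and 17.6% rose by that much, and the median log2 fold change was 0.01 over the 9 genes and 0.02 over all genes.

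PLIN2 was at 2220.2, 1741 and 1989 CPM with vehicle and at 538, 588 and 521 CPM with DOX. All DOX libraries lay under all vehicle libraries, and the log2 fold change was -1.83 (standard error 0.06, edgeR adjusted p = 1.4e-15), which is 3.56-fold lower. With DOX, PLIN2 was still several times the 2D level given above.

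The entry genes rose modestly. CPT1A had 154, 152 and 150.5 CPM with vehicle and 177, 169 and 163 CPM with DOX (log2 fold change 0.18, standard error 0.04, edgeR adjusted p = 0.00116). CPT2 went from 9.14, 10.02 and 10.997 CPM to 13.2, 14.1 and 13.3 CPM (0.45, standard error 0.09, edgeR adjusted p = 0.00021), and neither gene's groups overlapped. ACADVL was at 252, 233 and 242 CPM with vehicle and 236, 249.7 and 234 CPM with DOX, and ACADM at 63.0, 69.1 and 72.8 CPM and 73.6, 67.1 and 69.5 CPM. Both dehydrogenases overlapped between the groups, with log2 differences of 0.01 (95% interval -0.08 to 0.10) and 0.06 (-0.06 to 0.18).

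The trifunctional protein genes fell together. HADHA dropped from 217, 202 and 204 CPM to 162, 162 and 147 CPM (log2 fold change -0.38, standard error 0.05, edgeR adjusted p = 3.7e-07), and HADHB from 112, 106 and 108 CPM to 97.3, 92.3 and 88.1 CPM (-0.21, standard error 0.05, edgeR adjusted p = 0.00081). The flavoprotein genes moved apart. ETFA dropped from 113, 114 and 112 CPM to 95.01, 95.2 and 85.8 CPM (-0.28, standard error 0.05, edgeR adjusted p = 4e-05), whereas ETFB rose from 5.27, 5.39 and 5.13 CPM to 6.58, 7.997 and 7.01 CPM (0.48, standard error 0.12, edgeR adjusted p = 0.00136). Under scaling by library size alone, which moved the all-gene median up by 0.17 on the log2 scale, HADHB no longer passed (-0.04, adjusted p = 0.448) and ACADVL (0.18) and ACADM (0.22) passed as higher. The mtDNA share was 2.60% to 2.78% with vehicle and 6.36% to 6.72% with DOX, and scaling without mtDNA genes left the same 3 genes called higher and the same 4 called lower.

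Storage genes moved in both directions on MUC1 silencing. In the lipid droplet list, 7 of 15 rose and 4 fell. HILPDA, an inhibitor of the triglyceride lipase ATGL, fell from 192 ± 35.5 to 26.0 ± 4.80 CPM (SD, n = 3 each), and MGLL fell too (-1.27), while PLIN4 (1.83) and the ATGL activator ABHD5 (1.64) rose. PLIN2 and PLIN4, droplet coat genes of 1 family, thus changed in opposite directions. The carnitine shuttle list had 3 genes higher and 2 lower of 5, with the importer SLC22A5 at 2.91 CPM with vehicle and 17.4 CPM with DOX (log2 fold change 2.60) and the translocase SLC25A20 at 9.003 and 23.1 CPM (1.38, chosen after its values were seen). CROT rose as well (1.41), and CRAT (-0.99) and CPT1C (-0.34) fell.

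Of 13 uptake and activation genes 7 rose and 5 fell, led by the fatty acid receptor CD36 (3.15) and FABP4 (1.80) upwards and the transport proteins SLC27A3 (-2.62) and SLC27A1 (-1.60) downwards. The other mitochondrial enzymes had 6 higher and 5 lower of 17 (median -0.02), with HSD17B10 (0.73) and ACAD9 (0.58) the leading rises and ACAD11 (-0.82) and ACADSB (-0.74) the leading falls. Of 14 peroxisomal genes 7 rose and 5 fell, the bifunctional enzyme gene EHHADH (-1.84) falling most. The oxidase gene ACOX3 also fell (-0.75), and ABCD2 (1.81) and HACL1 (0.53) rose. Control genes had 3 higher and 7 lower of 15 (median -0.25): the nuclear receptors RXRA (-1.63) and PPARA (-1.13) fell, and PPARD (0.57) and the coactivator PPARGC1B (0.49) rose.

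**Figure D2:**
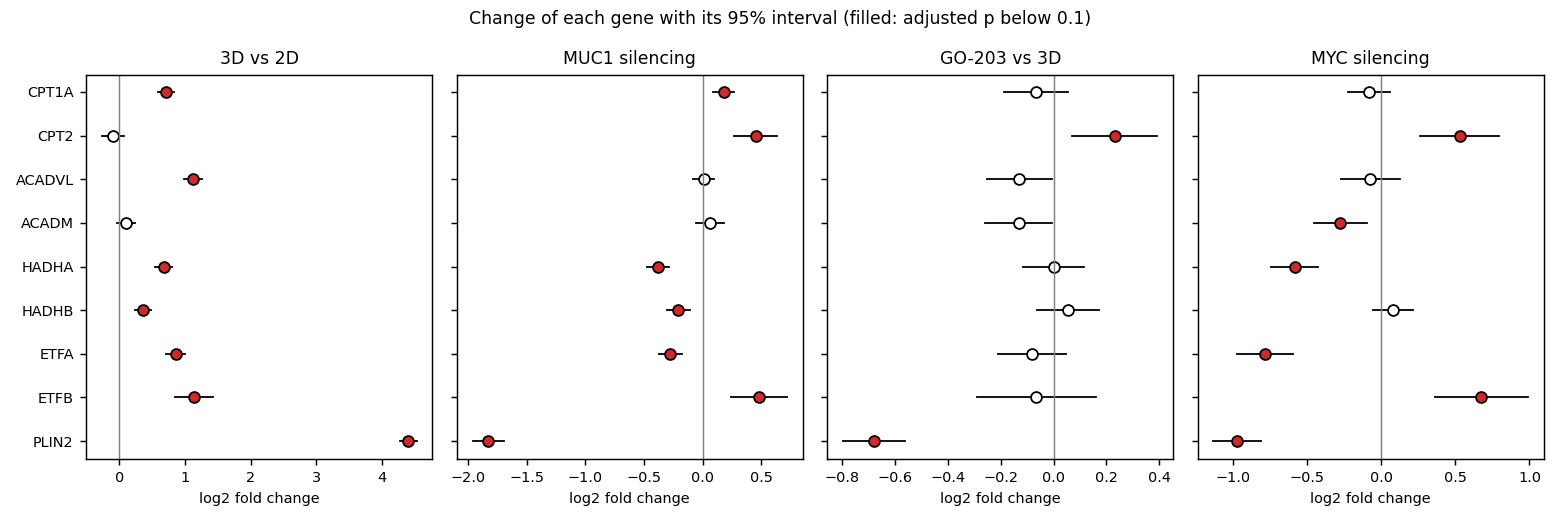
Log2 fold change (horizontal axis, a separate scale in each panel) of the 9 genes in the 4 comparisons with its 95% interval (lines), from edgeR on 3 against 3 libraries, filled where the adjusted p was below 0.1. The point for PLIN2 lies at 4.40 in 3D against 2D cells and on the negative side in the other 3 panels.

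GO-203 left most of the 9 genes near their level in the 3D group. This control group is titled cont, and the paper describes the comparison as GO-203 against vehicle. PLIN2 fell, CPT2 rose and 7 did not pass the test, where 12.9% of 18488 genes tested fell and 11.1% rose. PLIN2 alone passed 1.5-fold, as did 2.02% of all genes downwards and 3.61% upwards. The 3D libraries are the same ones that were compared with 2D cells, so the 2 comparisons are not independent.

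PLIN2 was at 900.2, 786 and 981 CPM with GO-203, all under the 1379.6 CPM of the lowest control 3D library. The log2 fold change was -0.68 (standard error 0.06, edgeR adjusted p = 1.3e-08), or 1.60-fold lower. CPT2 had 19.4, 19.2 and 20.6 CPM, above the 18.0 CPM of the highest control 3D library (log2 fold change 0.23, standard error 0.08, edgeR adjusted p = 0.0413). This call was lost without any 1 of 4 libraries, namely replicates 1 and 3 of either group, with log2 values between 0.21 and 0.24 and adjusted p between 0.103 and 0.139.

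The remaining 7 genes had log2 differences between -0.13 and 0.06. ACADVL (274, 276 and 256 CPM with GO-203) and ACADM (90.1, 84.3 and 88.3 CPM) lay under every control library, with log2 differences of -0.13 each (adjusted p = 0.144 and 0.145, edgeR), and both passed under DESeq2 (adjusted p = 0.0860 and 0.0868). CPT1A had 168, 152 and 157 CPM and a difference of -0.07 (95% interval -0.19 to 0.05). HADHA had 305, 273 and 302 CPM and HADHB 125, 118 and 128 CPM, with 95% intervals of -0.12 to 0.12 and -0.06 to 0.17. ETFA (98.9, 95.04 and 107 CPM) and ETFB (12.1, 11.5 and 10.2 CPM) had intervals of -0.21 to 0.05 and -0.29 to 0.16. All 5 genes overlapped between the groups, and the intervals leave room for changes of no more than 0.29 on the log2 scale.

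Beyond the 9 genes, GO-203 moved few genes of the pathway far. In the lipid droplet list 4 of 14 rose and 3 fell: the droplet-fusion gene CIDEC rose from 10.98 ± 0.640 to 21.3 ± 1.41 CPM (SD, n = 3 each), LIPE rose (1.05), and PLIN3 (-0.69) and MGLL (-0.33) fell. Of 15 control genes 2 rose and 4 fell, with ANGPTL4 (-1.01) and RXRA (-0.50) lower and the coactivator PPARGC1A (1.37) and PDK4 (0.48) higher. Of 17 mitochondrial enzymes 1 rose, DECR1 (0.58), and 4 fell, IVD (-0.27) and ACADSB (-0.26) among them. Uptake and activation genes had 4 higher and 1 lower of 12, with FABP5 (0.59) and FABP3 (0.49) higher and SLC27A5 lower (-0.27). The carnitine shuttle had 2 higher of 5, SLC22A5 (0.86) and CPT1C (0.18), and the peroxisomal list 3 higher of 13, including ABCD2 (0.73) and PHYH (0.36). The medians of the 6 lists lay between -0.06 and 0.18, and the median of all genes was 0.02.

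Silencing MYC lowered PLIN2, ETFA, HADHA and ACADM and raised ETFB and CPT2. The 4 lower and 2 higher of 9 genes stand beside 28.1% lower and 30.3% higher of 19951 genes tested. With more than 1.5-fold required, PLIN2 and ETFA fell and ETFB rose, where 17.1% of all genes fell and 20.6% rose. The median log2 fold change was -0.08 over the 9 genes and 0.01 over all genes.

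PLIN2 was at 1232, 1177 and 1279 CPM with vehicle and at 573, 673 and 663 CPM with DOX. No DOX library reached the vehicle range, and the log2 fold change was -0.97 (standard error 0.07, edgeR adjusted p = 1.8e-06), or 1.96-fold lower. PLIN2 was lower in all 3 comparisons that perturbed MUC1-C or MYC. Among them, MYC RNA fell only on MYC silencing, with log2 differences of 0.25 on MUC1 silencing and -0.01 with GO-203. RNA counts do not show MYC protein or its binding to DNA. By immunoblot, the paper reports less MYC protein in mammospheres when MUC1-C was targeted. The paper also reports lower MYC occupancy at some other promoters on MUC1-C silencing, and fewer nuclear MUC1-C and MYC complexes with the inhibitor. Whether MYC took part in the falls of PLIN2 was not tested.

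ETFA dropped from 96.2, 90.7 and 86.0 CPM to 47.6, 58.4 and 54.5 CPM (log2 fold change -0.79, standard error 0.08, edgeR adjusted p = 2.4e-05). Its partner ETFB rose from 9.49, 8.86 and 6.63 CPM to 12.4, 14.6 and 13.5 CPM (0.67, standard error 0.14, edgeR adjusted p = 0.00235). The groups did not overlap for either subunit. HADHA dropped from 229, 214 and 212 CPM to 135, 158 and 151 CPM (-0.58, standard error 0.07, edgeR adjusted p = 6e-05). HADHB, with the shared upstream stretch, had 86.3, 85.1 and 82.7 CPM with vehicle and 93.1, 87.4 and 91.9 CPM with DOX, and its log2 difference of 0.08 (95% interval -0.06 to 0.22) did not pass the test. CPT2 rose from 13.4, 13.8 and 12.8 CPM to 16.7, 22.7 and 19.2 CPM (0.53, standard error 0.12, edgeR adjusted p = 0.00373), with a wide spread among the DOX libraries.

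CPT1A did not pass, with 189, 177 and 172 CPM with vehicle and 167, 168 and 180.5 CPM with DOX (log2 difference -0.08, 95% interval -0.22 to 0.06). ACADM dropped from 77.2, 82.7 and 78.2 CPM to 73.8, 64.1 and 61.7 CPM (-0.27, standard error 0.08, edgeR adjusted p = 0.0164). ACADVL had 241, 242 and 218 CPM with vehicle and 199, 255 and 222 CPM with DOX (-0.07, 95% interval -0.27 to 0.12). Without DOX replicate 2, the library with the highest ACADVL value, ACADVL passed as lower (-0.18, adjusted p = 0.0786).

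Around these genes, every list except that of the mitochondrial enzymes had more genes higher than lower on MYC silencing. Over all genes tested, 30.3% rose and 28.1% fell. Of 14 peroxisomal genes 11 rose and 1 fell (median 0.58), with the phytanoyl-CoA hydroxylase gene PHYH (1.59) among those that rose and ECH1 falling (-0.26). All 5 other carnitine shuttle genes tested rose (median 0.76), CPT1C from 22.2 ± 0.826 to 56.3 ± 7.77 CPM (SD, n = 3 each) and CROT by 1.16 on the log2 scale. Of 15 control genes 9 rose and 5 fell (median 0.60): PDK4 rose from 134 ± 4.401 to 1437 ± 206 CPM and PPARGC1A from 0.114 ± 0.0652 to 5.88 ± 0.220 CPM (SD, n = 3 each), while ANGPTL4 (-1.13) and PPARGC1B (-0.97) fell. Of the other 17 mitochondrial enzymes 3 rose, 7 fell and 7 did not pass (median -0.13), including the thiolase gene ACAT1 (-0.65) and ECI2 (-0.85) as lower and ACADS (1.18) and DECR1 (0.37) as higher.

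In the lipid droplet list, 8 of 14 rose and 3 fell. CIDEC rose from 0.389 ± 0.135 to 8.26 ± 2.43 CPM and PLIN4 from 6.23 ± 0.140 to 50.3 ± 10.4 CPM (SD, n = 3 each), both opposite in direction to PLIN2, and MGLL (-0.61) and G0S2 (-0.99) fell. Uptake and activation genes had 7 higher and 3 lower of 13, with FABP4 (3.25) and SLC27A1 (1.86) higher and SLC27A5 (-1.80) and FABP3 (-0.78) lower. The summed adipocyte markers rose with them, from 7.37 to 8.35 CPM with vehicle to 72.3 to 83.5 CPM with DOX, and were at 35.0 to 37.6 and 103 to 121 CPM in the tet-MUC1shRNA line. Their part in these results was not tested, with LEP and PLIN1 at the low levels given above.

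**Figure D3:**
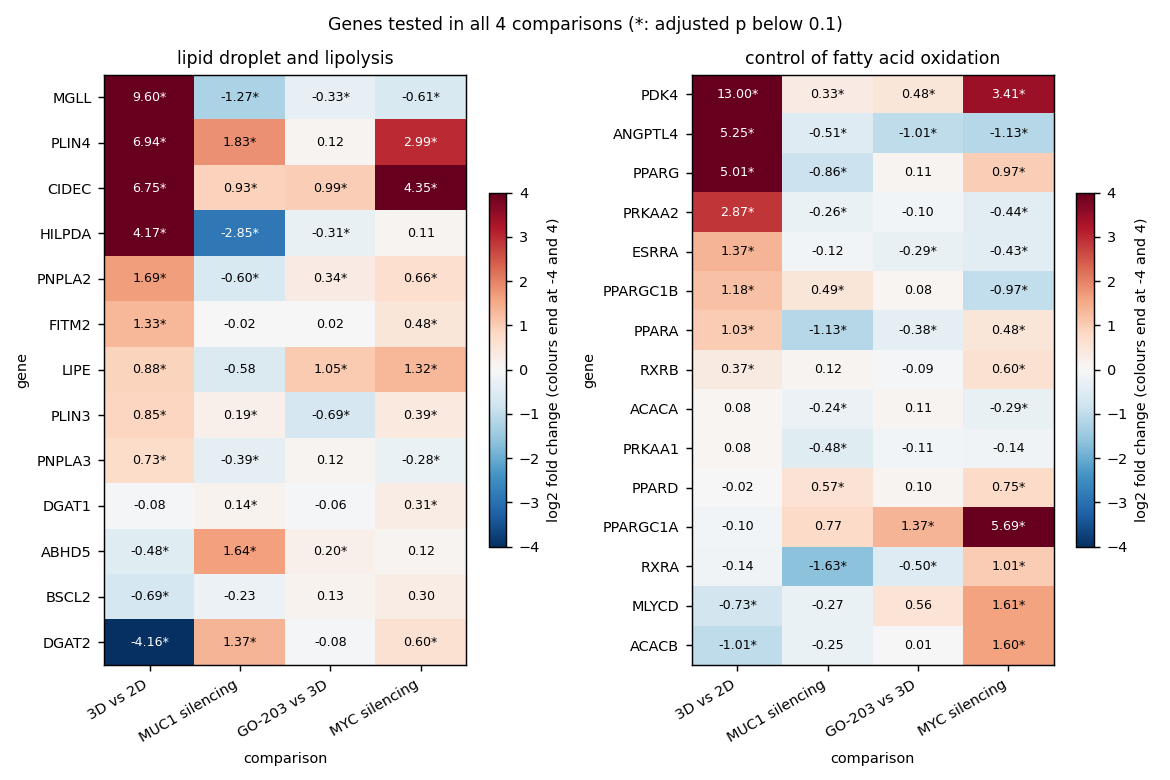
Fitted log2 fold changes (colour and number) of the lipid droplet and control genes that were tested in all 4 comparisons (columns), with an asterisk where the adjusted p was below 0.1. PLIN4 and CIDEC are positive in every column, MGLL is positive in the 3D against 2D column alone, and values for genes with few 2D counts, such as PDK4 at 13.00, depend on the fit's prior count.

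The ratio of paired genes was taken within each library, where scaling cancels. The HADHA to HADHB count ratio was 2.65, 2.52 and 2.56 in vehicle-treated tet-MYCshRNA libraries and 1.45, 1.81 and 1.64 with DOX. In the tet-MUC1shRNA line it went from 1.93, 1.91 and 1.88 to 1.66, 1.75 and 1.67, and from 1.89, 1.98 and 2.07 in 2D to 2.57, 2.37 and 2.45 in 3D cells. None of these 3 pairs of groups overlapped. How often the ratios of other gene pairs separate in the same way was not counted, here or for the ratios below. The separation is thus no result about the shared upstream stretch. The ratio overlapped between control and GO-203-treated 3D cells, whose means were 2.46 and 2.37.

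The ETFA to ETFB ratio dropped in both shRNA lines. It was 10.1, 10.2 and 13.0 with vehicle and 3.84, 4.01 and 4.02 with DOX in the tet-MYCshRNA line, a 2.79-fold drop. In the tet-MUC1shRNA line it was 21.4, 21.2 and 21.9 with vehicle and 14.4, 11.9 and 12.2 with DOX, a 1.68-fold drop. The 2D and 3D groups overlapped, at means of 11.05 ± 0.962 and 9.09 ± 1.52 (SD, n = 3 each). The CPT1A to CPT2 ratio rose from 5.68 ± 0.163 in 2D to 9.94 ± 0.685 in 3D cells and was lower with DOX than with vehicle in both lines (8.94 against 13.4 in the tet-MYCshRNA line, 12.5 against 15.2 in the tet-MUC1shRNA line). It was also lower with GO-203 (8.08 ± 0.544) than in control 3D cells. For every ratio whose groups did not overlap, the two-sided exact permutation test gave p = 0.1, the smallest that 3 against 3 allows, and 0.133 after adjustment over 12 tests. ETFB shares 5.19% of its merged exon bases with an overlapping gene on the same strand, and named pseudogenes exist for HADHA (2) and HADHB (1), so a small part of these counts is uncertain.

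**Figure D4:**
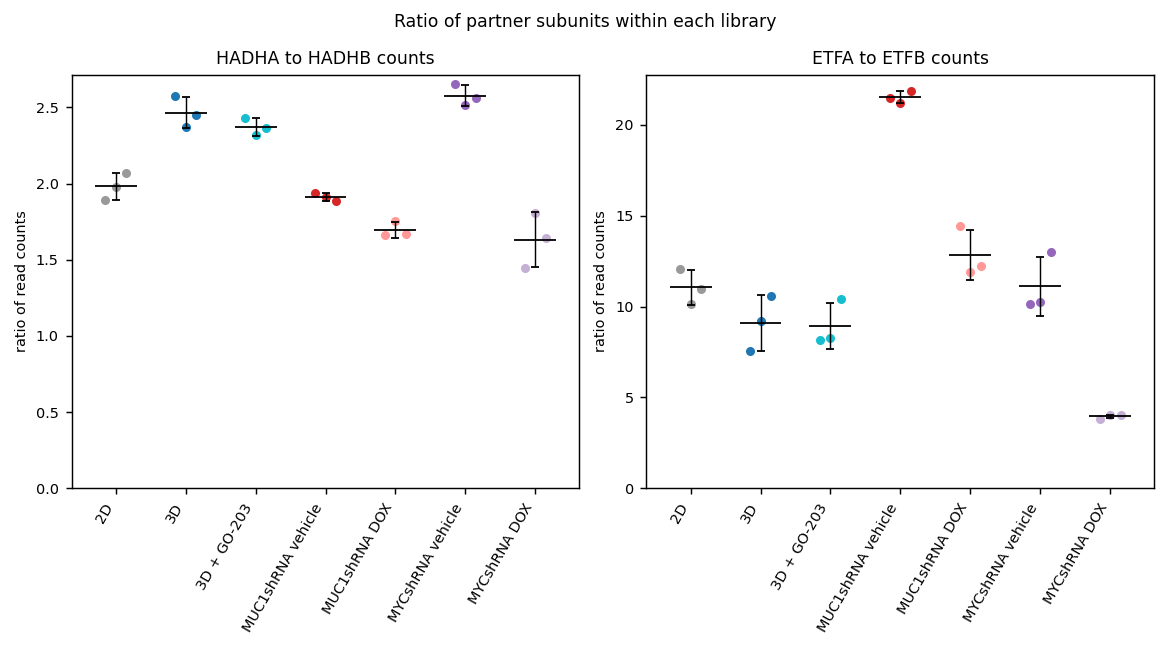
Ratio of HADHA to HADHB counts (left) and of ETFA to ETFB counts (right) in each library (points), with group mean (line) and SD (bars), n = 3 per group, both axes starting at 0. DOX-treated tet-MYCshRNA libraries lie lowest in both panels, at 1.45 to 1.81 and 3.84 to 4.02, the left panel's values overlapping the DOX-treated tet-MUC1shRNA libraries.

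The effects of MUC1 and MYC silencing on the 9 genes were then set against each other in 1 fit of the 12 vehicle and DOX libraries. The difference between the effects passed the test for 5 of the 9 genes, and for 52.9% of all 21585 genes tested. The difference was positive for CPT1A (0.25), ACADM (0.32) and ETFA (0.50) and negative for HADHB (-0.30) and PLIN2 (-0.87), the log2 fold change on MYC silencing being subtracted from that on MUC1 silencing. PLIN2 and ETFA thus fell in both lines and by different amounts, PLIN2 by more with MUC1 silenced and ETFA by more with MYC silenced. CPT2 (-0.09, 95% interval -0.42 to 0.23), ACADVL (0.07, -0.15 to 0.29) and ETFB (-0.21, -0.60 to 0.18) did not pass, nor did HADHA (0.19, adjusted p = 0.101). The lines differed in passage and in how far the target fell, and these cannot be told apart from the target.

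Across the 7 groups the order of levels differed between genes. PLIN2 was lowest in 2D cells (68.6 ± 1.98 CPM, SD, n = 3), followed by DOX-treated tet-MUC1shRNA (549 ± 34.7) and tet-MYCshRNA mammospheres (636 ± 54.9), which overlapped. Above them came, each separate from the next, GO-203-treated cells (889 ± 98.2), vehicle-treated tet-MYCshRNA (1229 ± 50.9), 3D (1453 ± 72.8) and vehicle-treated tet-MUC1shRNA mammospheres (1983 ± 239.6, SD, n = 3). CPT1A and ACADVL were also lowest in 2D cells (104 ± 5.06 and 137 ± 9.47 CPM) and separate from all other groups. CPT1A formed a run of overlapping neighbours from 152 to 179 CPM, whereas for ACADVL 3D cells (300.3 ± 18.2) and GO-203-treated cells (268 ± 11.1) stood apart above the shRNA groups.

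Not all genes were lowest in 2D cells. CPT2 was lowest in vehicle-treated tet-MUC1shRNA mammospheres (10.1 ± 0.930 CPM), apart from the others, and its 4 highest groups, 2D cells among them, spanned 17.2 to 19.7 CPM with overlapping neighbours. ETFB was about as low in that vehicle group (5.27 ± 0.127) as in 2D cells (5.44 ± 0.820) and highest in DOX-treated tet-MYCshRNA mammospheres (13.5 ± 1.08). HADHA, ETFA and ACADM were lowest in that last group, at 148 ± 11.8, 53.5 ± 5.46 and 66.5 ± 6.45 CPM, overlapping DOX-treated tet-MUC1shRNA mammospheres for HADHA, 2D cells for ETFA and vehicle-treated tet-MUC1shRNA mammospheres for ACADM. HADHB was lowest with vehicle in the tet-MYCshRNA line (84.7 ± 1.85). HADHB was highest in GO-203-treated and control 3D cells, at 124 ± 5.28 and 122 ± 3.71 CPM, which overlapped.

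Genes whose pattern over the 21 libraries was most like that of each of the 9 were found by Pearson's r of log2(CPM + 1) among 10309 genes with a mean of at least 5 CPM. PLIN2 was most like DDIT4 (r = 0.98) and KLF7 (0.97), and ETFA most like ACAT2 and PCID2 (0.97 each). The closest for CPT1A were ZC3H12C and SLC1A3 (0.96 each), for ACADVL VGF (0.97) and PGM1 (0.96), for HADHA IARS2 (0.96) and RPL5 (0.95), and for HADHB RNF168 (0.96) and ZNF385B (0.94). CPT2 was closest to MIGA2 (0.95) and CAVIN1 (0.93), ACADM to PPT1 (0.93) and CTNNAL1 (0.92), and ETFB to ENOX1 and PLEKHA5 (0.94 each). Among the 9 themselves, r ran from -0.49 for ETFA with CPT2 to 0.88 for PLIN2 with ACADVL. These are descriptions over libraries that share groups and differ in depth, not tests.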

How the data were processed

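Total RNA was made into stranded, paired-end mRNA libraries, and reads were aligned to GRCh38 with STAR (2.7.3a in the submitters' processing notes) and counted per gene with featureCounts. The authors deposited these raw counts for 42339 genes, with no normalization. The annotation release, strand setting and treatment of reads with several matches are not given in the sources used here. Empty cells were read as 0, and none belonged to the 9 genes. The labels number the replicates and do not say how their cultures were separated, so p-values measure the spread between these libraries, which may be partly technical.

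Each pair of groups was fitted over all genes on its own 6 libraries in R 4.3.3 with edgeR 4.0.16: filterByExpr, TMM factors and the quasi-likelihood F test, with Benjamini-Hochberg adjustment over all genes tested and calls at an adjusted p below 0.1. CPM values were scaled over all 21 libraries, so a difference near 0 can have another sign than its fitted value. MUC1 and MYC silencing were compared by an interaction term over their 12 libraries. On simulated data with 100 genes changed by a log2 of 0.5, the test recovered 58% in 3D against 2D cells, 58% for MUC1 silencing, 56% for GO-203, 39% for MYC silencing and 18% for the interaction. Each simulation changed 200 genes in all, drawn at random over all expression levels. Far more genes were called in the data, so these shares do not give the recovery for the 9 genes. The alternatives were DESeq2 1.42.0 as the test; RLE factors, plain library sizes, or TMM without mtDNA genes as the scaling; a minimum of 1 count, or of 10 counts per library, as the filter; 1 fit of all 21 libraries; a replicate block; thresholds of 0.05 or of 1.5-fold; and leave-one-out fits. Merged exons and canonical transcripts came from GENCODE release 44, and all 9 genes matched the RefSeq promoter windows (11 entries, ACADVL and ETFB with 2 each). Motifs were sought on both strands.

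The 9 genes and the 6 lists were chosen with earlier results of these data known. Of the lists, the genes named per comparison are those past the threshold with a mean of at least 1 CPM in either group and the largest changes, at most 2 in each direction, as well as any said to be chosen after their values were seen. A gene that this rule would name is not reported here.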

Additional observations from a re-analysis of the deposited data

Results flagged for a closer look

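For 5 of the 9 genes, the effect of silencing MUC1 differed from that of silencing MYC in the test of the difference itself (edgeR, adjusted p below 0.1, 12 libraries). The same test passed for 52.9% of all genes, a share close to that of the 9, so the count is no result about these genes. Each value is the log2 fold change on MUC1 silencing minus that on MYC silencing. For PLIN2 it was -0.87 (standard error 0.11, adjusted p = 3.8e-06), from changes of -1.83 and -0.97 in the respective lines. For ETFA it was 0.50 (standard error 0.10, adjusted p = 0.00059), from -0.28 and -0.79. HADHB (-0.30, standard error 0.08, adjusted p = 0.00394) fell on MUC1 silencing and did not pass the test on MYC silencing. ACADM (0.32, standard error 0.10, adjusted p = 0.0165) fell on MYC silencing and did not pass on MUC1 silencing. CPT1A (0.25, standard error 0.08, adjusted p = 0.0135) rose on MUC1 silencing and did not pass on MYC silencing. The lines differed in passage and in the extent of silencing, with log2 changes of -2.06 for MUC1 and -0.62 for MYC, and these cannot be told apart from the target. Groups of 3 libraries are too small for the check on outlying samples used here.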

How the results depend on the processing

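In 3D against 2D cells, 7 genes were called higher and 0 lower under every alternative except the 1.5-fold threshold (6) and leaving out 3D replicate 1 (8). Scaling by library size alone shifted the median of all genes by 0.17 for MUC1 silencing and 0.20 for the interaction. It gave 5 genes higher on MUC1 silencing, and 5 higher and 1 lower in the interaction, where CPT2 turned to 0.11. Leaving out low-count filtering shifted those medians by 0.17 and 0.21. Requiring 1.5-fold left 0 higher and 1 lower for MUC1 silencing, 0 higher for GO-203, 1 higher and 2 lower for MYC silencing, and 0 higher and 1 lower for the interaction.

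For GO-203, 3 genes were lower under DESeq2, and 0 were higher with all 21 libraries in 1 fit. Leaving out each library gave 0 to 1 higher and 1 to 2 lower. HADHA, at 0.00, turned to -0.0054 under DESeq2, -0.0055 with RLE factors, -0.0019 without mtDNA genes, -0.0097 without the filter and -0.031 with all libraries, and ranged from -0.033 to 0.036 without single libraries. ACADVL on MUC1 silencing turned to -0.014 with all libraries. Leaving out single libraries gave, for genes that were not called, ranges that crossed 0: on MUC1 silencing ACADVL -0.024 to 0.033 and ACADM -0.0018 to 0.11, with GO-203 ETFB -0.13 to 0.043, on MYC silencing ACADVL -0.18 to 0.0041, and in the interaction CPT2 -0.20 to 0.025 and ACADVL -0.018 to 0.16. No gene that was called reversed. The causes of these changes were not tested.

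Same-numbered replicates did not deviate together (r between -0.18 and 0.08), so the numbers were not taken as pairs. With the replicate block, 3 genes were lower with GO-203 (PLIN2, ACADVL and ACADM), and the other counts of calls were unchanged in the 4 comparisons and the interaction. Depth limited ETFB and CPT2 most, with as few as 202 and 350 counts in a library.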
